A study of Mus musculus with 4 samples.

Results

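Collagen genes and the genes whose products modify, fold and trim collagen were examined in infarcted hearts of wild-type mice and of mice with a Cre aimed at endothelial S1pr1. The set was a fixed list of 38 genes, 26 collagen chains and 12 processing genes, found on the arrays through the RefSeq accession of each probe. Of these, 37 had a probe and 36 were measured, meaning that at least 2 of the 4 arrays read a probe as well above background. They stood among 22931 tested features in all. Col12a1 had no probe named here, and the Col10a1 probe was well above background on 1 array.

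The hearts were those of male mice, taken 5 days after the left anterior descending coronary artery had been tied off to cause a myocardial infarction. Wild-type mice (WT, 2 arrays, replicates 1 and 3) were set against mice of genotype VE-Cad-Cre-S1pr1 fl/fl (KO, 2 arrays, replicates 3 and 4). KO mice carry a Cre recombinase under the promoter of VE-cadherin, an endothelial junction protein, and Cre acts there on the floxed S1pr1 gene. Which cells lost it was not measured. S1pr1 encodes a receptor for sphingosine 1-phosphate. The labels used here give neither the age of the mice nor whether WT mice carried the Cre or the floxed allele, and they do not say that each array is a separate heart. The p-values therefore cover the spread between samples alone, and that spread may be technical. RNA was taken from hearts without sorting of cells, so fewer cells of a type and less RNA per cell cannot be told apart.

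Collagens are built from 3 chains wound into a triple helix. Fibrillar collagens such as types I and III make the load-bearing fibres of a scar, and the minor types V and XI are incorporated into those fibres and help to set their diameter. Type IV collagen forms the sheet-like network of basement membranes around vessels and muscle cells, and types XV and XVIII sit in the zone beside it. New chains are hydroxylated and folded in the endoplasmic reticulum, and their end peptides are cut off outside the cell before fibres assemble. In the infarcted heart, fibroblasts that turn into myofibroblasts are the best known source of scar collagen.

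Short stretches upstream of 4 members are shown because these genes stand for the patterns described below. Col1a2 and Col3a1 encode chains of the main scar fibres, Col5a1 a chain of the minor fibrillar type V, and Col4a5 a basement membrane chain. The sequences are RefSeq's, build GRCm38.p6, all on the plus strand, each covering the 150 bases before the annotated start. Capitals mark the letters GGGCGG, the CCAAT box or the TATA-like run TATAA, found on either strand. Col1a2 lies at chr6:4505468-4505617, Col3a1 at chr1:45311388-45311537, Col5a1 at chr2:27886275-27886424 and Col4a5 at chrX:141475269-141475418.
Col1a2: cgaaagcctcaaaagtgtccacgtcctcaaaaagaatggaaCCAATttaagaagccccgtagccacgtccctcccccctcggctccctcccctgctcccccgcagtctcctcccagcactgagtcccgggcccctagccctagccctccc
Col3a1: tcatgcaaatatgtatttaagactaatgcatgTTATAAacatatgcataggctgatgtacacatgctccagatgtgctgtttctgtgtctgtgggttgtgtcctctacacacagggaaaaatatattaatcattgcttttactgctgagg
Col5a1: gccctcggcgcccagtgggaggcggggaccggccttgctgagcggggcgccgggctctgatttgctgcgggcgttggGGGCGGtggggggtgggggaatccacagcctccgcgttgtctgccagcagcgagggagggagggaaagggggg
Col4a5: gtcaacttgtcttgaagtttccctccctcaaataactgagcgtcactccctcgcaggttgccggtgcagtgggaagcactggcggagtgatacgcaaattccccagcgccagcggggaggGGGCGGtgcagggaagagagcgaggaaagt
In Col1a2 the CCAAT match begins 109 bases before the start, and in Col3a1 the TATAA matches on both strands overlap, 117 and 118 bases before it. The GGGCGG match begins 73 bases before the start in Col5a1 and 30 bases before it in Col4a5. RefSeq windows matched 30 of the 38 members, some of them with more than 1 start. Over the 250 bases before each start, GGGCGG occurred in 23 of the 32 member windows, against 32.7% of 32851 windows of all genes. CCAAT occurred in 10 of 32, where all genes gave 33.8%, and TATAA in 4 of 32, where all genes gave 22.8%. These matches are descriptions of the letters and were not set against the array values.

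Each level below is a log2 processed signal minus the 75th percentile of that array, and each difference is the KO mean minus the WT mean of such levels. The targeted gene was examined first. Its WT levels were 0.43 and 0.95, and its KO levels -2.69 and -2.30. S1pr1 was well above background on all 4 arrays, the genotypes did not overlap, and the difference was -3.19 (SE 0.38, unadjusted p = 0.000714, limma adjusted p = 0.740). The 4 arrays lay on 1 slide, at positions 4, 3, 2 and 1 for WT replicates 1 and 3 and KO replicates 3 and 4, so position and genotype cannot be told apart. WT replicate 1 had 54.3% of its probes well above background, and the other arrays had 69.4% to 73.4%.

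No collagen or processing gene passed the test between genotypes. Limma called 0 of the 36 measured members at an adjusted p under 0.05, as it called 0 of all 22931 features (0%), and the smallest adjusted p among members was 0.740. At an unadjusted p under 0.05, 1 member was counted (Col2a1, lower in KO), against 2.76% of all features. The means of 29 members were lower in KO and those of 7 were higher, where 45.2% of all features had a lower mean. The median difference was -0.77 over the 36 members and 0.07 over all features. The genotypes were separate, with both KO arrays below both WT arrays, for 9 members, against 16.1% of all features. For 2 members both KO arrays lay above both WT arrays, against 18.3%. With 2 arrays in each genotype, a two-sided exact permutation test cannot go below p = 0.333.

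KO replicate 4 stood apart from the other arrays in these genes. It had the lowest level for 31 of the 36 members, where 27.6% of all features were lowest on that array. KO replicate 4 lay below KO replicate 3 for 34 members, with a median gap of -1.59. Over all features these values were 38.3% and 0.17. The gap within KO was larger than the genotype difference for 30 members. KO replicate 3 and WT replicate 3 were close by comparison. Their median difference over the members was 0.19, KO replicate 3 was the lower for 12 of the 36, and 11 members differed by less than 0.2. Without KO replicate 4, 19 of the 36 members had a lower mean in KO, with a median difference of -0.14. Without KO replicate 3 these values were 33 members and -1.44. The WT arrays were uneven too, and WT replicate 1 had the highest level for 22 of the 36 members. The gap within WT was larger than the genotype difference for 14 members. Counts of gaps and of the highest array were made over members alone, without a share of all features. Without WT replicate 1, 27 members had a lower mean in KO, with a median difference of -0.48. Without WT replicate 3 these values were 30 members and -1.05. Only Col2a1 and P4ha3 had a genotype difference larger than the gaps within both genotypes. For Col2a1 this rests on a KO replicate 4 value that was not well above background: with dim signals on every array set to 1 common floor, its difference was -0.71 and its WT gap 1.41.

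**Figure D1:**
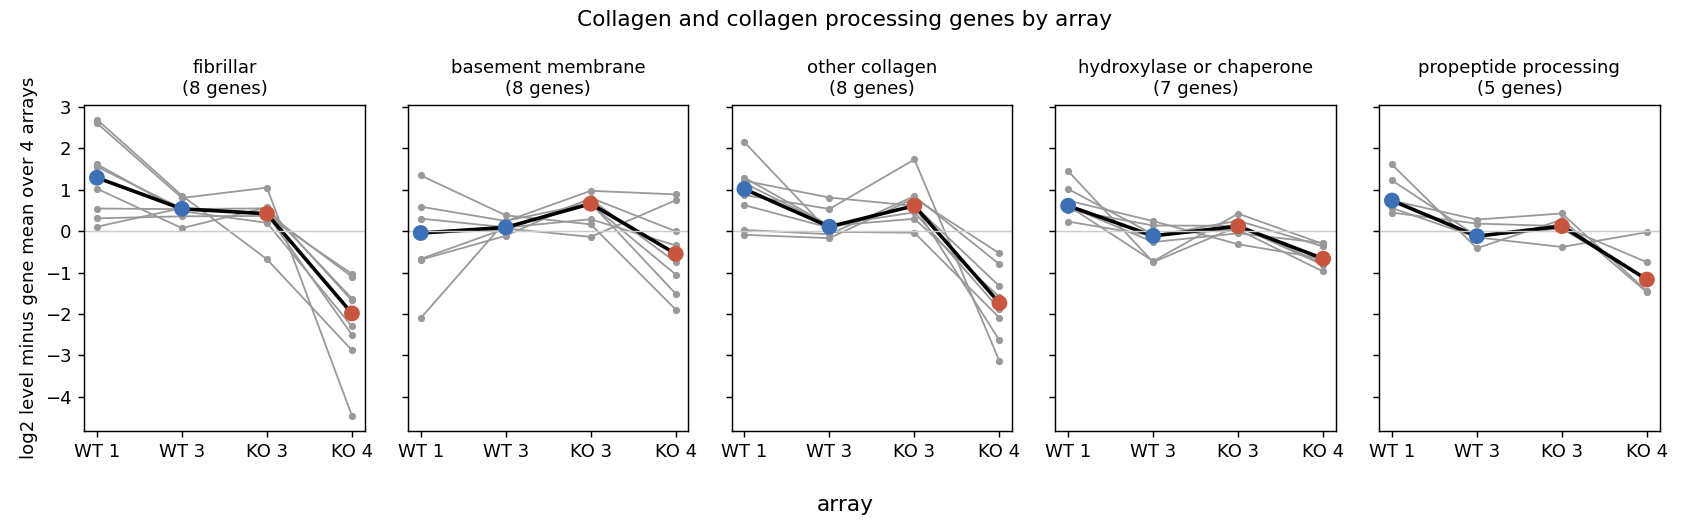
Each panel plots 1 class of genes, with the array on the horizontal axis (WT blue, KO red) and on the vertical axis the log2 level minus that gene's mean over the 4 arrays. Grey lines join the values of 1 gene and the black line joins the class medians. The fibrillar median is 1.29 and 0.54 on the WT arrays, 0.42 on KO replicate 3 and -1.99 on KO replicate 4. The basement membrane median, over genes that go both ways, stays between -0.55 and 0.66.

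All 8 measured fibrillar chains had a lower mean in KO, with a median difference of -1.60 (range -3.55 to -0.66), and 6 of them were at least 2-fold lower, where 7.51% of all features were. Without KO replicate 4 the median difference was -0.32, and KO replicate 3 lay below WT replicate 3 for 4 of the 8. The fibrillar chains followed 2 different patterns across the arrays. The chains of types I and III were nearly level on 3 arrays and low on KO replicate 4. Col1a1, which encodes the main chain of type I, had levels of 6.70 and 7.15 in WT and 7.03 and 5.49 in KO. Col1a2, its partner chain, had 6.88 and 6.87 in WT and 6.88 and 4.71 in KO. Col3a1, the type III chain, had 7.14 and 7.19 in WT and 7.19 and 5.79 in KO. For these chains KO replicate 3 lay beside the WT arrays, and only KO replicate 4 was low.

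The differences of the main chains were therefore small beside their spread. Col1a1 differed by -0.66 (SE 0.62, limma adjusted p = 0.744), with a 95% interval that began at -2.33 and included 0. Col1a2 differed by -1.08 (SE 0.80) and Col3a1 by -0.67 (SE 0.56), each with a limma adjusted p of 0.740. Without KO replicate 4 the differences were 0.10, 0.011 and 0.033 for Col1a1, Col1a2 and Col3a1. Without KO replicate 3 they were -1.43, -2.17 and -1.37. The processed signals of Col3a1 were 156368 and 124481 for WT, and 137815 and 34235 for KO. No spot was saturated, but whether signals this bright still rose in proportion to RNA was not tested.

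The minor fibrillar chains were spread more widely. Col5a1, a chain of type V, had levels of 6.06 and 4.93 in WT and 4.65 and 2.15 in KO. Its partner Col5a2 had 2.20 and 1.19 in WT and 1.04 and -1.86 in KO. For both, WT replicate 1 was the highest array, the arrays numbered 3 lay close together, and the genotypes did not overlap. The differences were -2.10 (SE 0.98) for Col5a1 and -2.10 (SE 1.08) for Col5a2, each with a limma adjusted p of 0.740. Col5a1 and Col5a2 kept almost the same proportion to each other: while each ranged over 3.91 and 4.06 log2 units, their ratio ranged over 0.41. Several other pairs were looser. The ratio ranged over 0.97 for Col1a1 and Col1a2, and over 0.66 for Col4a1 and Col4a2. It ranged over 1.62 for Col8a1 and Col8a2, and over 1.73 for Col4a5 and Col4a6.

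Col5a3, the third type V chain, had levels of 3.13 and 2.18 in WT and 2.68 and 0.43 in KO, so that the genotypes overlapped. Col11a1, a type XI chain found in cartilage and in young or injured tissue, had 1.03 and -0.78 in WT and -0.53 and -6.04 in KO. Its range of 7.07 was the widest of the 36 members, and its difference of -3.41 had an SE of 1.99. Without KO replicate 4 the difference of Col11a1 was -0.65, and with the common floor under dim signals it was -2.58. Its level on KO replicate 4 was close to the lowest one well above background on that array (-6.50). Col2a1, the cartilage collagen, had levels of -2.98 and -4.81 in WT and -6.35 and -8.55 in KO. It was not well above background on KO replicate 4. Its difference was -3.55 (SE 1.01, unadjusted p = 0.0215, limma adjusted p = 0.740), and with the common floor under dim signals it was -0.71.

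Cartilage genes were read beside Col2a1 and Col11a1. Of 10 listed cartilage and bone markers, 5 were measured, and Matn1, Hapln1, Runx2, Sp7 and Ibsp were not. Those measured had a mean level of -2.10 and -2.36 in WT and -2.50 and -3.46 in KO. The median difference of the 5 was -0.49, and 4 of them were well above background on KO replicate 4. By gene the differences were -3.11 for Matn3, -1.06 for Sox9, -0.49 for Acan, 0.15 for Comp and 0.75 for Chad. With the common floor the difference of Matn3, whose KO replicate 4 signal was dim, was -0.28. That of Chad, whose WT replicate 1 signal was dim, was 0.63.

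**Figure D2:**
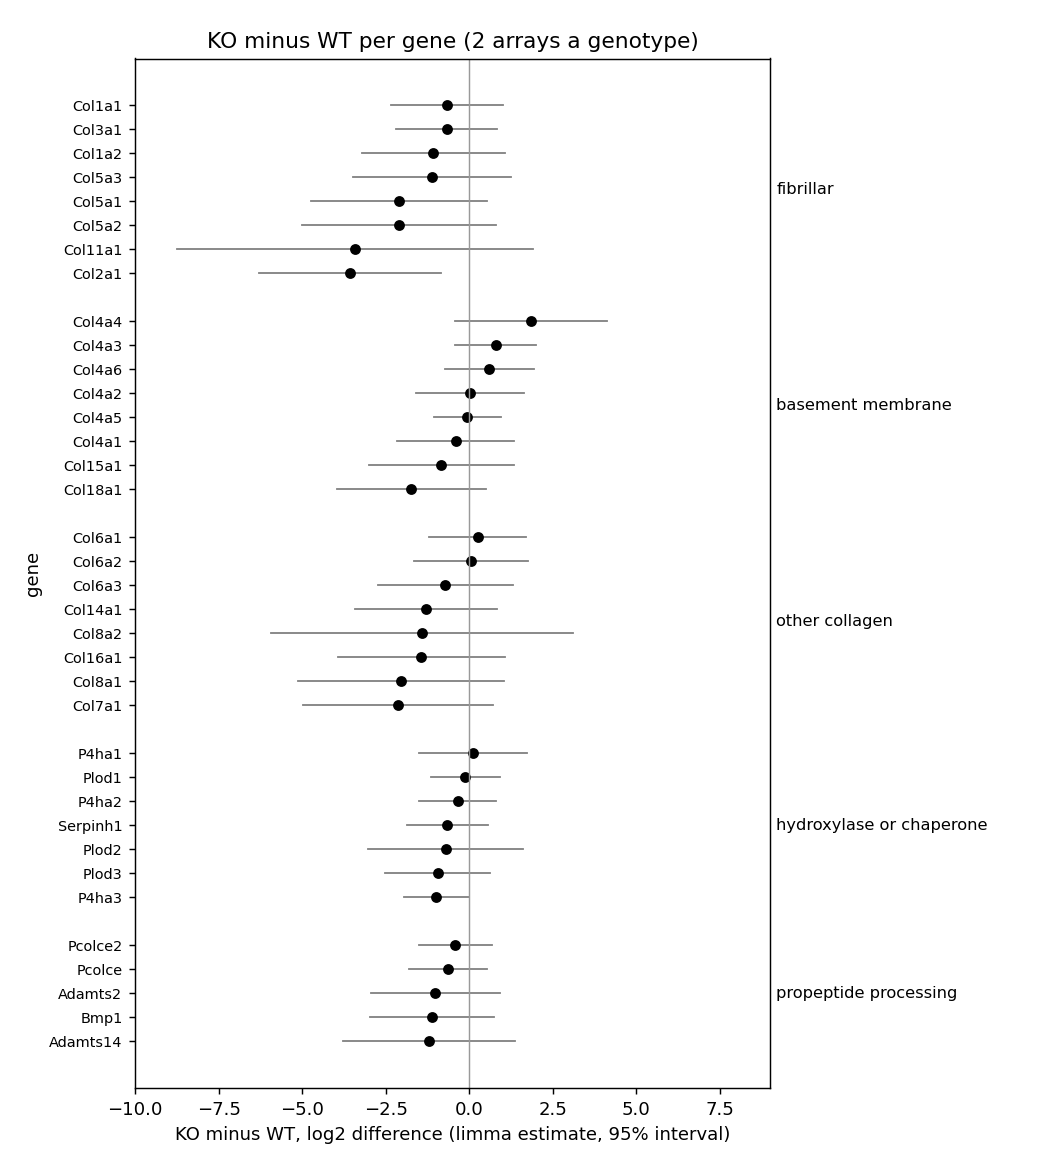
The KO minus WT difference of each measured member in log2 units is plotted on the horizontal axis, with 1 row per gene ordered within its class. Points are limma estimates from 2 arrays a genotype and bars are 95% intervals; the bar of Col2a1 (-6.28 to -0.83) lies wholly below 0, the type IV chains lie on both sides of 0 while every fibrillar point lies below it, and the Col2a1 value on KO replicate 4 is not well above background.

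Type IV chains, the scaffold of basement membranes, went both ways. Of the 6, 4 had a higher mean in KO and 2 a lower one, with a median difference of 0.31. The higher ones were Col4a2 (0.02), Col4a6, whose 2 probes differed in sign, and Col4a3 and Col4a4. The probes of Col4a3 and Col4a4 were not well above background on WT replicate 1. Col4a1 and Col4a2 encode the type IV chains present in nearly all basement membranes. Col4a1 had levels of 3.15 and 2.94 in WT and 3.50 and 1.80 in KO, and Col4a2 had 1.54 and 1.64 in WT and 2.37 and 0.85 in KO. For both, KO replicate 3 was the highest array and KO replicate 4 the lowest. KO replicate 4 minus KO replicate 3 was -1.70 for Col4a1 and -1.52 for Col4a2. For Col1a1, Col1a2 and Col3a1 it was -1.54, -2.18 and -1.40. Its median was -0.72 over the type IV chains and -2.22 over the fibrillar chains. The genotype differences were -0.40 (SE 0.65) for Col4a1 and 0.02 (SE 0.60) for Col4a2, with limma adjusted p of 0.826 and 0.989. The sign for Col4a2 turned to -0.087 under median scaling. These genes lie head to head on opposite strands, with RefSeq starts 21 bases apart. The Col4a2 start lies inside the Col4a1 transcript, so that no base lies before both starts. The 78 bases that their RefSeq windows share are therefore not upstream of both genes.

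Col4a1 also gave a measure of the error within an array, since 10 spots carried its probe. The SD over these spots was 0.04 on WT replicate 1, 0.02 on WT replicate 3 (9 spots used), 0.03 on KO replicate 3 and 0.05 on KO replicate 4. The arrays themselves spanned 1.70. The spot SD leaves out the spread from RNA, labelling and hybridisation.

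**Figure D3:**
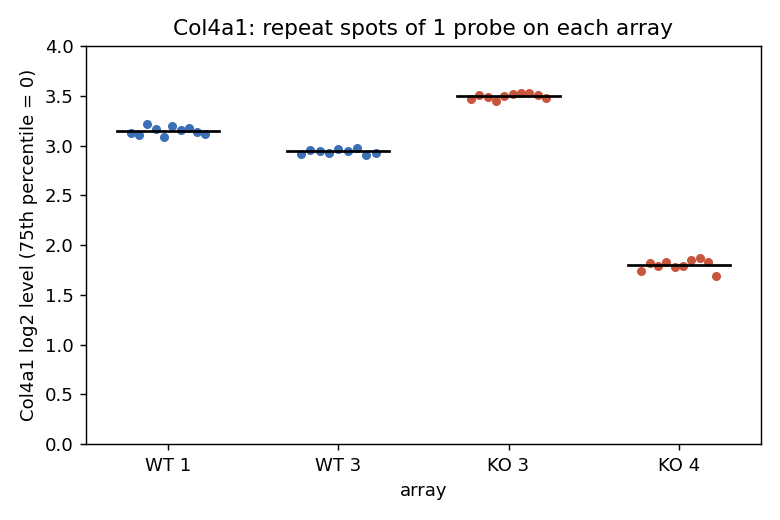
Log2 levels of the repeat spots of the Col4a1 probe are plotted for each array, relative to the array's 75th percentile, with black bars at the array means. The spots of 1 array differ little, while KO replicate 3 (3.50) and KO replicate 4 (1.80) lie on opposite sides of the WT arrays (3.15 and 2.94).

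The remaining type IV chains are found in fewer basement membranes, such as those of the kidney, lung, skin and eye. Col4a4 had levels of -4.30 and -1.96 in WT and -1.22 and -1.31 in KO, a difference of 1.86 (SE 0.85, limma adjusted p = 0.740). Col4a3 had -6.64 and -6.06 in WT and -5.14 and -5.95 in KO, a difference of 0.80 (SE 0.45, limma adjusted p = 0.740). Both KO arrays lay above both WT arrays for these chains, but neither probe was well above background on WT replicate 1. Without that array the differences were 0.69 for Col4a4 and 0.51 for Col4a3. With the common floor under dim signals the difference of Col4a3 was 0.

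Col4a5 and Col4a6 lie head to head on the X chromosome, with RefSeq starts 1343 bases apart. Col4a5 had levels of 1.80 and 1.92 in WT and 2.12 and 1.48 in KO, and its range of 0.63 was among the narrowest of the members. Col4a6 had -2.47 and -1.74 in WT and -1.94 and -1.06 in KO, and was the only member with its highest level on KO replicate 4. The differences were -0.06 (SE 0.37) and 0.61 (SE 0.49). A second Col4a6 probe of similar brightness gave -0.36, with levels of -0.74 and -2.63 in WT and -1.50 and -2.59 in KO. It was highest on WT replicate 1, so neither the direction nor the highest array was the same in the 2 probes.

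The measured collagens beside the basement membrane both had a lower mean in KO. Col18a1, whose C-terminal fragment is endostatin, had levels of 3.62 and 2.66 in WT and 2.44 and 0.38 in KO. The genotypes did not overlap, and the difference was -1.73 (SE 0.83, limma adjusted p = 0.740), with -1.65 from a second probe. Col15a1 had -1.16 and -1.50 in WT and -1.07 and -3.26 in KO, a difference of -0.84 (SE 0.81, limma adjusted p = 0.746). Without KO replicate 4 the differences were -0.70 for Col18a1 and 0.26 for Col15a1.

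The contrast between fibrillar and basement membrane chains was read within each array, from medians of levels centred on each gene's own mean. Fibrillar minus basement membrane was 1.34 on WT replicate 1, 0.45 on WT replicate 3, -0.24 on KO replicate 3 and -1.44 on KO replicate 4. With the type IV chains alone the values were 1.66, 0.46, -0.29 and -1.81. Both KO arrays lay below both WT arrays in this contrast, and the mean difference was -1.73 for all basement membrane chains and -2.11 for type IV alone. The WT arrays were 0.89 apart in it for all basement membrane chains, and the KO arrays 1.20. These class medians do not describe the main chains, for which KO replicate 4 minus KO replicate 3 was similar in both classes. It was -1.54, -2.18 and -1.40 for Col1a1, Col1a2 and Col3a1, and -1.70 and -1.52 for Col4a1 and Col4a2. Col2a1, Col4a3 and Col4a4 were each not well above background on 1 array. Without them, a choice made after seeing the data, the contrast with type IV was 1.07 and 0.46 for WT, and -0.034 and -1.13 for KO. The mean difference was then -1.34 for type IV and -1.07 for all basement membrane chains. No test was made, since the classes were chosen with earlier results of these data known. Against the other collagens the fibrillar chains differed less, with 0.27 and 0.43 for WT, and -0.20 and -0.25 for KO. Without Col2a1 that contrast overlapped between genotypes, with 0.0088 and 0.43 for WT, and -0.18 and 0.062 for KO.

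Among the other collagens, 6 of 8 measured chains had a lower mean in KO, with a median difference of -1.35 that was 0.0025 without KO replicate 4. Type VI collagen forms beaded filaments around cells. Col6a1 had levels of 4.03 and 3.95 in WT and 4.91 and 3.58 in KO, and Col6a2 had -0.67 and -0.78 in WT and 0.14 and -1.50 in KO. Col6a3 had 3.79 and 3.25 in WT and 3.78 and 1.84 in KO. Each of the type VI chains was lowest on KO replicate 4, with overlap between genotypes. The ratio of Col6a1 to Col6a2 ranged over 0.38 across arrays, while that of Col6a1 to Col6a3 ranged over 1.51. The differences were 0.26 (SE 0.54), 0.05 (SE 0.63) and -0.71 (SE 0.75), and the sign of Col6a2 turned to -0.064 under median scaling.

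Col8a1 and Col8a2 encode the short-chain type VIII collagen of vessel walls and injured tissue. Col8a1 had levels of 3.83 and 3.43 in WT and 3.22 and -0.02 in KO, a difference of -2.03 (SE 1.15, limma adjusted p = 0.740). Col8a2 had -0.17 and -0.51 in WT and 0.68 and -4.19 in KO, so it was both highest and lowest in KO, and a dimmer probe for it gave a difference of 0.32 in place of -1.41. Col7a1, the anchoring fibril collagen, had 0.92 and -1.24 in WT and -1.27 and -3.32 in KO. Its difference was -2.13 (SE 1.05, limma adjusted p = 0.740), and KO replicate 3 minus WT replicate 3 was -0.021.

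Col14a1 and Col16a1 encode collagens that lie on the surface of fibres or link them to other matrix. Col14a1 had levels of 3.44 and 2.41 in WT and 2.57 and 0.69 in KO. Col16a1 had 3.81 and 2.65 in WT and 2.97 and 0.63 in KO. The differences were -1.29 (SE 0.79) and -1.43 (SE 0.93), and the genotypes overlapped for both. The Col10a1 probe, outside the measured set, had -6.62 and -6.60 in WT and -6.37 and -8.73 in KO.

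Of the 7 genes for hydroxylases and the collagen chaperone, 6 had a lower mean in KO, with a median difference of -0.65 (range -0.98 to 0.11). Serpinh1, the chaperone that binds procollagen in the endoplasmic reticulum, had levels of 6.68 and 6.30 in WT and 6.29 and 5.39 in KO. KO replicate 3 minus WT replicate 3 was -0.0086, both KO arrays lay below both WT arrays, and the difference was -0.65 (SE 0.45, limma adjusted p = 0.740). Its promoter window was among the 23 that held GGGCGG.

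The prolyl 4-hydroxylase subunits P4ha1, P4ha2 and P4ha3 make the hydroxyproline that keeps the triple helix stable. P4ha3 had levels of -3.27 and -3.76 in WT and -4.32 and -4.67 in KO. The genotypes did not overlap, the gaps within genotypes were 0.50 and 0.35, and the difference was -0.98 (SE 0.37, unadjusted p = 0.0501, limma adjusted p = 0.740). A dimmer probe gave -0.56. Normexp background correction gave a P4ha3 difference of -0.35 in place of -0.98. P4ha1, in contrast, had 0.05 and -1.29 in WT and -0.14 and -0.87 in KO, a difference of 0.11 (SE 0.60, limma adjusted p = 0.948), and its second probe gave -0.050. P4ha2 had 3.79 and 2.92 in WT and 3.13 and 2.90 in KO, and 3 of its arrays lay within 0.23 of each other.

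The lysyl hydroxylases Plod1, Plod2 and Plod3 prepare lysines for crosslinking and for the attachment of sugars. Plod2, which hydroxylates the telopeptides at the ends of the helix, had levels of 0.41 and -1.79 in WT and -0.92 and -1.86 in KO. WT replicate 1 was the high array, and without it the difference of Plod2 turned from -0.70 (SE 0.86, limma adjusted p = 0.784) to 0.40. Plod3 had 1.77 and 0.68 in WT and 0.79 and -0.22 in KO, a difference of -0.94 (SE 0.59, limma adjusted p = 0.740). Plod1 had -1.37 and -1.71 in WT and -1.35 and -1.97 in KO, and its range of 0.62 was the narrowest of the members. A second Plod1 probe gave 0.29 in place of -0.12.

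All 5 genes that act on the propeptides had a lower mean in KO, with a median difference of -1.02. Bmp1, the protease that removes the C-terminal propeptide of fibrillar chains, had levels of 4.54 and 3.19 in WT and 3.38 and 2.15 in KO. The difference was -1.10 (SE 0.69, limma adjusted p = 0.740), and its other probes gave -1.86 and -0.70. Pcolce, which enhances that cleavage, had 5.72 and 5.46 in WT and 5.39 and 4.52 in KO, without overlap, and differed by -0.63 (SE 0.43, limma adjusted p = 0.740). Pcolce2, its relative, had 3.25 and 2.54 in WT and 2.31 and 2.67 in KO, and was the only member of this class not lowest on KO replicate 4.

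Adamts2 and Adamts14 remove the N-terminal propeptide. Adamts2 had levels of 3.68 and 3.22 in WT and 3.36 and 1.49 in KO, a difference of -1.02 (SE 0.72). Adamts14 had 0.82 and -1.20 in WT and -0.51 and -2.27 in KO, a difference of -1.20 (SE 0.96). Without KO replicate 4 these differences were -0.082 and -0.32.

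Other genes of the collagen pathway were counted too, and limma called 0 of them. Among 20 measured genes for further folding, modification and secretion, 16 had a lower mean in KO, with a median of -0.66. An unadjusted limma p under 0.05 was found for 1 of the 20, against 2.76% of all features. Fkbp10, a procollagen folding enzyme, had levels of 5.32 and 4.16 in WT and 3.78 and 2.22 in KO, a difference of -1.73 (SE 0.72). Colgalt2, which adds galactose to hydroxylysine, ran the other way, with -3.99 and -2.42 in WT and -1.53 and -1.44 in KO, a difference of 1.73 (SE 0.61).

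Of 8 measured collagen receptors, 6 were lower in the mean, with a median of -0.74. Itga11, an integrin subunit of fibroblasts that binds type I collagen, had levels of 1.62 and 1.31 in WT and 0.99 and -0.78 in KO. Lair1, an inhibitory collagen receptor of leukocytes, had -1.38 and -1.47 in WT and -2.07 and -2.51 in KO. Of 13 measured further collagen chains, 10 had a higher mean in KO, but only 3 of the 13 were well above background on WT replicate 1, against 12 or 13 on the other arrays. Col11a2 and Col22a1, with differences of 0.69 and 1.01, had no difference left with the common floor (0 for each).

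Markers of the cells that make collagen were read on the same arrays. All 9 measured myofibroblast markers had a lower mean in KO, and the median of their centred levels was 1.22 and 0.94 on the WT arrays, 0.71 on KO replicate 3 and -2.67 on KO replicate 4. Their mean level was 3.41 and 2.63 in WT and 2.72 and -0.59 in KO, and 1 of the 9, on KO replicate 4, was not well above background. The 12 fibroblast markers went both ways, with medians of -0.16 and -0.01 in WT and 0.42 and -0.02 in KO, and all 12 were well above background on KO replicate 4. That array was the lowest for 5 of the 12, among them Thy1 (3.85 on KO replicate 3 and 1.92 on KO replicate 4) and Mfap5 (4.33 and 2.50), while Dcn (6.31 and 6.77) and Gsn (5.80 and 7.02) were highest there. The endothelial markers had medians of -0.28 and -0.10 in WT and 0.25 and 0.09 in KO, with a higher mean in KO for 10 of 10. Of these, 7 did not overlap between genotypes, where 18.3% of all features were higher in KO without overlap.

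Other cell types were arranged along the arrays as well. Proliferation markers had medians of 2.11 and 0.57 in WT and 0.73 and -3.37 in KO, and macrophage markers 1.05 and -0.20 in WT and 0.05 and -0.92 in KO. The macrophage markers had a lower mean in KO for 10 of 10 (45.2% of all features), with differences from -3.55 to -0.03. Of these, 4 were without overlap (16.1% of all features) and 3 had an unadjusted limma p under 0.05 (2.76% of all features). All 10 proliferation markers were lower too, 4 of them without overlap. Ventricular cardiomyocyte markers ran the other way, at -2.95 and 0.88 in WT and 0.68 and 1.41 in KO, and pericyte markers had -1.74 and 0.31 in WT and 0.64 and 0.59 in KO. Mesothelial markers had 0.65 and -0.75 in WT and 0.15 and 0.16 in KO. Smooth muscle markers had -0.09 and 0.02 in WT and -0.05 and 0.05 in KO, medians that pool genes going both ways. Of these 6 genes, 4 had a higher mean in KO and 2 a lower one. The lower ones were Cnn1 (difference -2.41) and Tagln (-1.69), both without overlap between genotypes. Of the 4 higher ones, 1 was without overlap. The part of these cell types in the collagen values was not tested.

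**Figure D4:**
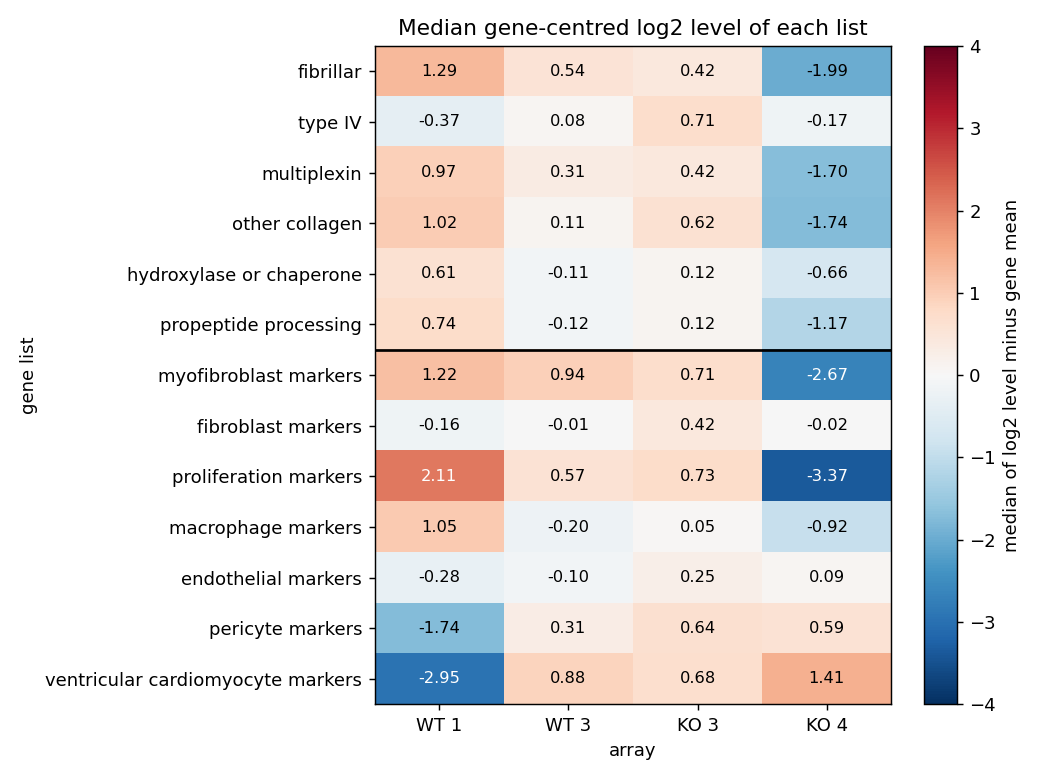
Each cell gives, for 1 gene list (rows) on 1 array (columns), the median over genes of the log2 level minus the gene's mean over the 4 arrays, with red above and blue below 0. Fibrillar chains (-1.99), other collagens (-1.74) and myofibroblast markers (-2.67) are lowest on KO replicate 4. The medians of type IV chains (-0.17) and fibroblast markers (-0.02) there pool genes that go both ways, with 3 of 6 and 5 of 12 lowest on that array.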

How the data were processed

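Total RNA from 4 heart samples was measured on Agilent mouse arrays in 1 colour (Cy3). The scanner software was Feature Extraction 11.0.1.1 per the file headers, and the processed signal intensity is background-subtracted and detrended within each array; version 9.1 of that software stands in the submitters' processing notes. Per the file headers, other values are the flags of each spot for background, saturation and outliers, which were taken unchanged. The deposited table holds log2 values with the same median (6.11) and the same 75th percentile (9.75) in each column. The method that normalized it between arrays is not given in the sources used here. Its columns had a slope of 0.992 to 1.01 against log2 scanner signals.

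Control and outlier spots were left out, repeat spots of a probe were averaged as log2 values, and each array's 75th percentile was subtracted. A probe counted as well above background on an array when a fraction of at least 0.5 of its spots had that flag. Probes well above background on at least 2 arrays were kept, and the brightest probe stood for a gene. Of 39429 probes, 27234 took 1 symbol from the GRCm38.p6 table by RefSeq accession and 12195 kept the array's identifier. The array grid names mm9, so coordinates are given only for RefSeq's own promoter windows.

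KO was compared with WT on all 4 arrays by limma 3.58.1 (lmFit, then eBayes) under R 4.3.3. The test was two-sided, p-values were adjusted over 22931 features by Benjamini-Hochberg, and the threshold was 0.05. For 6 features an outlier left 1 or more arrays without a value, and the fit used the others; none is named here. The fit was tested on simulated data. The members, their classes and the other gene lists were chosen with earlier results of these data known. All measured members are named with their array values, whatever their size. Fit statistics follow for 12 genes fixed by role and the 3 of smallest p in each class, and for some others. From each further pathway list the 2 genes of smallest p are named. Alternatives were quantile or median scaling, dropping or tightening the filter on dim probes, the mean of a gene's probes, the deposited table, a common floor (-4.39) under dim signals, and each array left out. Normexp (offset 50) was run on median signals, chosen after seeing the data, because the mean signal column it was planned for was not among those used here. The number of arrays limits the precision.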

Additional observations from a re-analysis of the deposited data

How the results depend on the processing

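Limma called 0 features and 0 members under each of the 12 alternatives run (unadjusted p under 0.05 in the fit reported: 633 features, 1 member). Quantile normalization and the deposited table were hardly separate checks for bright genes, as both gave -0.96 for Col1a1 and -1.34 for Col1a2. For the dim Col2a1 they gave -3.44 and -2.90. Of the 36 member differences, 19 kept their sign under every alternative that could be run for them, all 12 for most of them; the stricter filter leaves out Col2a1, Col4a3 and Col4a4. Scaling moved the median of all features from 0.07 to -0.04 (median scaling), where 31 members were lower. Under median scaling Col4a2 was -0.087 and Col6a2 -0.064, with the mean of probes Plod1 was 0.089, and under the common floor Col4a3, Col11a2 and Col22a1 were 0, as both groups then lie at the floor. Normexp gave -0.73 for Col2a1, -1.99 for Col11a1, 1.21 for Col4a4 and -0.35 for P4ha3. With probes well above background on all 4 arrays the class medians were -1.10 for fibrillar and -0.23 for basement membrane chains.

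Leaving out each array moved the class medians most. They ranged from -2.79 to -0.32 for fibrillar chains, from -2.42 to 0.0025 for other collagens and from -1.11 to 0.055 for hydroxylases and chaperone, with the values nearest 0 without KO replicate 4 for the chains and without WT replicate 1 for the last. Basement membrane chains ranged from -0.56 to 0.36 and propeptide genes from -1.72 to -0.32. The sign of 16 members turned with an array left out. Their ranges were -1.43 to 0.10 for Col1a1, -2.17 to 0.011 for Col1a2, -1.37 to 0.033 for Col3a1, -2.22 to 0.026 for Col5a3, -1.25 to 0.45 for Col4a1 and -0.74 to 0.78 for Col4a2. They were -0.37 to 0.26 for Col4a5, -1.93 to 0.26 for Col15a1, -0.41 to 0.92 for Col6a1, -0.78 to 0.87 for Col6a2, -1.69 to 0.26 for Col6a3 and -3.84 to 1.03 for Col8a2. For the processing genes they were -0.56 to 0.78 for P4ha1, -0.77 to 0.093 for P4ha2, -0.43 to 0.19 for Plod1 and -1.80 to 0.40 for Plod2. A genotype left with 1 array was assumed to vary like the other. No paired analysis was possible because the genotypes share only replicate number 3. With a single slide and scan for all arrays, neither could be a block. Signal over background limits dim genes, most on WT replicate 1, where the lowest level well above background was -4.39.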
